A study of Mus musculus with 7 samples.

Results

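Strong stable IRF4 sites without p65 are places in the genome where IRF4 gave a strong peak in mouse regulatory T (Treg) cells, gave a peak of like score when RelA was missing, and where no RelA peak lay nearby. They numbered 870, or 15.5% of the 5630 IRF4 summits of wild-type (WT) cells. A site was counted when its WT score was at least 50, when it and a summit of the RelA-deficient (p65KO) list were each other's nearest within 200 bp, and when no p65 summit lay within 1 kb. The log2 ratio of the p65KO to the WT score also had to rank between the 10th and the 90th percentile of all mutual pairs on chromosomes 1 to 19 and X, which meant between -0.89 and 0.58 (0.539 to 1.49 times the WT score). The sites were thus selected on the IRF4 scores of both genotypes, the authors' own −log10 significance values per peak, and on the p65 list. The size and likeness of the scores are what this choice fixed and are given as description.

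The cells were splenic Treg cells on a C57BL/6 background. IRF4 was precipitated with the antibody M-17 from WT cells (3 samples) and from p65KO cells (2 samples), both stimulated through CD3 and CD28 for 48 h. p65 was precipitated with the antibody C-20 from WT cells (2 samples) given PMA and ionomycin for 30 min. The labels call the p65KO cells RelA-deficient, and how or in which cells the gene was removed is not stated in the sources used here. Each group came as 1 list, of 5630 (WT IRF4), 4312 (p65KO IRF4) and 797 (p65) summits, so values below have no replicate error and read depth is unknown. The absence of a p65 summit describes cells stimulated for minutes, whereas IRF4 was mapped after 48 h. Positions are summits in mm9, 1-based, and genes were not assigned.

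IRF4 is a transcription factor of lymphocytes that is induced by antigen receptor signalling and is needed by effector Treg cells. On its own it binds DNA weakly, and in T cells it is known to bind mainly together with AP-1 proteins such as BATF and JUN at composite elements. RelA, also called p65, is an activating subunit of NF-κB that enters the nucleus after antigen receptor or TNF receptor family signals.

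The sites came from a stepwise choice in which the largest loss was at the score limit. Of 5533 WT summits on chromosomes 1 to 19 and X, 3594 had a mutual p65KO partner, and 1111 scored at least 50. Of those 1111, 1087 had a partner and 24 did not. A p65 summit lay within 1 kb of 50 of the 1087, which left 1037. The ratio limits then kept 870 of 1037 (83.9%), beside 80.0% of all 3594 pairs, a share that the percentile limits set. By ratio, 142 were left out for a lower and 25 for a higher p65KO score than the limits allowed. Over all pairs the percentile limits leave out about 10% on each side. A score limit set on the WT list favours lower p65KO scores, so nothing is read from 142 against 25.

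Values on either side of the limits were close together. The 3 lowest WT scores kept were 50.1 on chromosome 1 at 52912956, 50.1 on chromosome 3 at 103661540 and 50.2 on chromosome 11 at 55011438. The 3 just under the limit scored 49.9 on chromosome 9 at 122086809, 49.95 on chromosome 9 at 56313222 and 49.98 on chromosome 15 at 62021383. At the lower ratio limit, chromosome 19 at 29331032 (log2 ratio -0.888), chromosome 1 at 40293132 (-0.886) and chromosome 2 at 101659750 (-0.885) were kept. Chromosome 10 at 117609751 (-0.893), chromosome 8 at 90143604 (-0.893) and chromosome 13 at 4712213 (-0.899) were not. At the upper limit, chromosome 10 at 39199375 (0.575), chromosome 9 at 32552902 (0.574) and chromosome 19 at 17343322 (0.568) were kept, and chromosome 11 at 61377683 (0.586), chromosome 10 at 24920681 (0.589) and chromosome 13 at 41766876 (0.594) were not. The limits thus cut through a continuous spread of scores and ratios. Distances to p65 are described further on.

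The place of these sites among the strongest IRF4 peaks follows largely from the score and ratio limits and is given as description. Among the 500 highest WT summits, 411 (82.2%) were strong stable sites without p65, beside 870 of the 1111 that scored at least 50. A further 34 had p65 within 1 kb, 41 had a p65KO score below and 7 above the ratio limits, 6 lay on unplaced sequence and 1 had no mutual partner. Ranking by WT score favours lower p65KO scores, so nothing is read from 41 against 7. Among the 500 highest p65KO summits, 415 (83.0%) were the p65KO partners of such sites. Of the highest 100, they made up 82 in WT and 80 in p65KO.

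**Figure D1:**
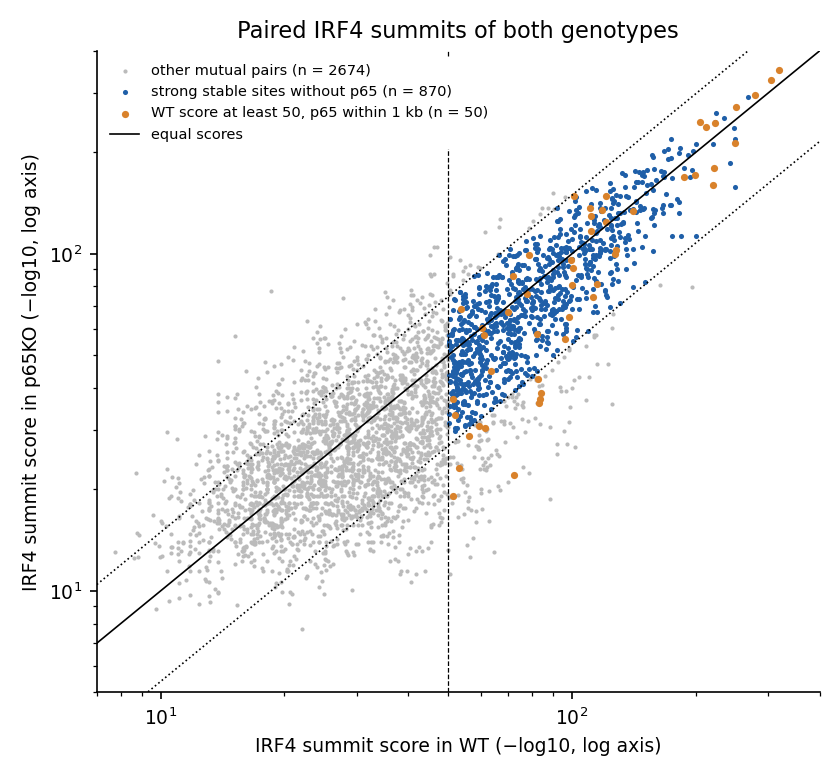
Score of each of the 3594 mutual IRF4 pairs in WT (x axis) and p65KO (y axis), both −log10 on log axes; the dashed line is the WT score limit of 50, the dotted lines are the ratio limits and the solid line marks equal scores. The 870 chosen sites fill the band to the right of the limit, and the 50 strong pairs with p65 reach from WT scores near 50 to the highest scores of the list.

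The site with the highest score was chromosome 11 at 61458225. It scored 267 in WT, rank 5 of the whole WT list, and 292 in p65KO, rank 4. The next by WT score, chromosome 13 at 113077514, scored 249 in WT and 158 in p65KO, ranks 7 and 58. The lists differ in length, so ranks place a site within its own list and show no change. These 2 sites lay on opposite sides of equal scores.

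Both directions recurred down the top 10. Chromosome 9 at 95052344 scored 249 in WT and 219 in p65KO. Chromosome 18 at 65638959 scored 247 and 236. Chromosome 7 at 54155031 scored 242 and 185. These 3 were lower in p65KO, and the next 3 were higher.

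Chromosome 6 at 47571288 scored 235 in WT and 252 in p65KO. Chromosome 8 at 48026863 scored 224 and 261, and stood at rank 13 in WT and rank 6 in p65KO. Chromosome 10 at 44164415 scored 223 and 246. The last sites of the 10 were lower in p65KO again.

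Chromosome 5 at 53793421 scored 219.9 in WT and 211 in p65KO. Chromosome 12 at 25828539 scored 200.4 and 113, a log2 ratio of -0.83 that nearly reached the lower limit. It had the lowest ratio among the 10.

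**Figure D2:**
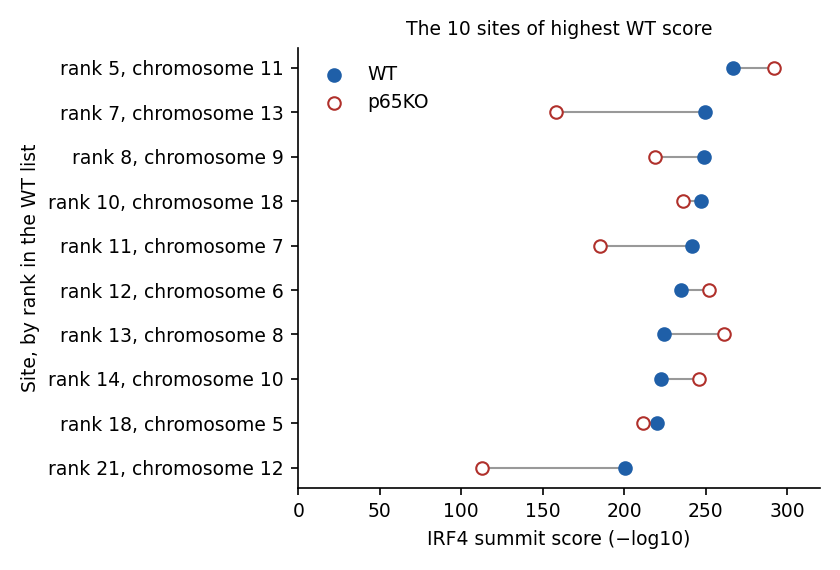
IRF4 summit score (−log10) of the 10 strong stable sites without p65 with the highest WT score, with WT as filled and p65KO as open circles; labels give the rank in the WT list and the chromosome. Of the 10, 4 scored higher in p65KO, led by chromosome 11 (267 and 292), and the sites on chromosomes 13 and 12 scored 158 and 113 in p65KO.

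Outside that top 10, the highest p65KO scores belonged to sites that were higher in p65KO than in WT. Chromosome 3 at 37191761 scored 174 in WT and 219 in p65KO. Chromosome 2 at 122478246 scored 200.4 and 211, and chromosome 1 at 13145626 scored 183 and 206. Chromosome 7 at 106982466 scored 172 and 204, and chromosome 2 at 18585822 scored 197 and 202. Being chosen for a high p65KO score favours this direction.

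Among sites with a WT score of at least 100, the 5 with the log2 ratio closest to 0 were spread over 5 chromosomes. Chromosome 9 at 44676899 scored 143.1 in WT and 143.0 in p65KO. Chromosome 7 at 25915751 scored 142.8 and 142.7, and chromosome 1 at 166066386 scored 127.5 and 127.4. Chromosome 13 at 45783190 scored 107.1 and 107.0, and chromosome 6 at 39664506 scored 151.4 and 151.9. The site on chromosome 13 stood at rank 248 of the longer WT and rank 207 of the shorter p65KO list.

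Over all 870 sites the WT score had a median of 76.6 (interquartile range 60.6 to 104, highest 267) and the p65KO score a median of 71.4 (52.8 to 100.2, highest 292). The other 4663 WT summits on these chromosomes had a median of 23.4. Across the 870 sites the scores of the genotypes had a Spearman rho of 0.819, and their log2 values a Pearson r of 0.842. The ratio limits fix much of this likeness, and the sites share their libraries.

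The middle of the ratio was slightly below equal scores. The median log2 ratio was -0.16, a p65KO score of 0.898 times the WT score (95% binomial interval of the median log2 ratio -0.19 to -0.11). Scores were lower in p65KO at 570 sites (65.5%) and higher at 300 (34.5%), beside 57.7% lower among all pairs, whose median log2 ratio was -0.11. Since the score limit was set on the WT list, the same choice was repeated with the limit of 50 on the p65KO score. It gave 761 pairs, 683 of them among the 870, with a median log2 ratio of -0.0015 (-0.037 to 0.032) and 383 lower against 378 higher. A limit on one list favours higher scores in that list by construction, so the split of directions at the sites moves with the list the limit is set on and nothing is read from it.

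Many ratios lay close to 0. The log2 ratio was within 0.25 of 0 at 414 sites (47.6%), beside 35.2% of all pairs. It was within 0.5 of 0 at 699 (80.3%), beside 62.7%. All pairs include those outside the ratio limits by construction, so nothing is read from these differences.

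By range of WT score, the ratios are given as description, since both values entered the choice. The median log2 ratio was -0.19 at the 422 sites with WT scores from 50 to 75, -0.16 at the 206 from 75 to 100, -0.09 at the 185 from 100 to 150 and -0.06 at the 57 of 150 and above. The median size of the log2 ratio, whatever its sign, was 0.31, 0.25, 0.22 and 0.21 in the same order. Spearman's rho between WT score and size of the log2 ratio was -0.133 over the 870 sites. The weaker pairs had medians of 0.27 at WT scores under 20, -0.04 from 20 to 30 and -0.31 from 30 to 50, where the ratio limits were not applied. A pair still needed a called p65KO summit, and the lowest score in that list was 7.50. This bounds how low the ratio can be at weak WT scores, so nothing is read from the order of these medians.

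The distance between the WT and the p65KO summit was limited to 200 bp by the choice, but its size within that limit was not otherwise used. It was small at these sites. The median offset was 10 bp (interquartile range 4 to 21, binomial interval of the median 9 to 11), against 17 bp over all 3594 pairs and 22 bp (20 to 23) over the 2507 pairs with a WT score under 50. The summits lay within 10 bp of each other at 452 sites (52.0%, 48.6 to 55.3), beside 34.4% of all pairs and 27.5% (25.8 to 29.3) of the weaker pairs. The intervals of the sites and of the weaker pairs cover counting over pairs only, and they did not overlap. The small offset was not particular to the sites kept. The median was also 10 bp over the 1037 strong pairs without p65 when no ratio limit was set, and over the 50 strong pairs with p65. Within 50 bp lay 835 (96.0%), and within 100 bp 867.

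The offset was smaller the higher the score. Its median was 12 bp at WT scores from 50 to 75, 10 bp from 75 to 100, 9 bp from 100 to 150 and 7 bp at 150 and above. Among the weaker pairs it was 28 bp under 20, 22 bp from 20 to 30 and 17.5 bp from 30 to 50, so the order ran through all 7 ranges of score. The ranges under 50 hold all pairs, whatever their ratio or p65, and those from 50 up hold only the sites kept. Spearman's rho between WT score and offset was -0.297 over all pairs and -0.130 within the 870 sites. These correlations are across sites that share libraries, and the sampling of reads around a summit was not measured.

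**Figure D3:**
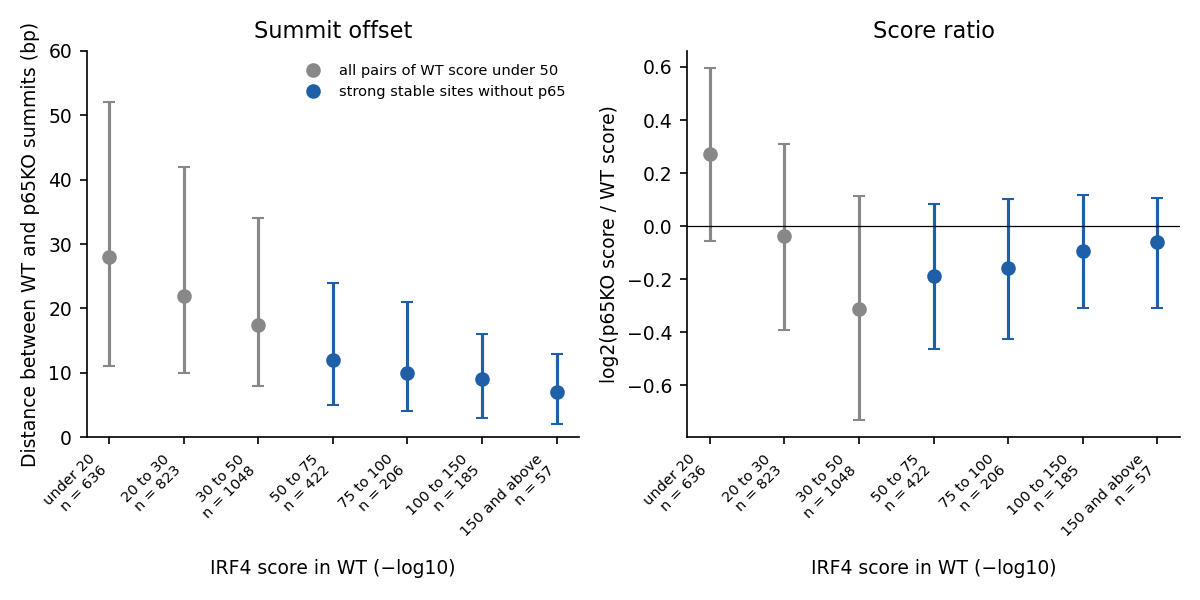
Distance between paired summits in bp (left) and log2 of p65KO over WT score (right) by range of WT score; points are medians, bars reach from the first to the third quartile, and n counts pairs. The median offset goes from 28 bp in the weakest pairs to 7 bp in the strongest sites. In the right panel the blue bars are bounded by the ratio limits, and the grey ones only by the lowest p65KO score called, 7.50.

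At the same score, offsets of sites left out for their ratio could be set beside those kept. From 50 to 75, the median was 12 bp at the 422 sites kept and 16 bp at the 92 with a weaker p65KO score, with 45.5% (40.8 to 50.3) and 34.8% (25.8 to 44.9) within 10 bp. From 75 to 100 it was 10 bp and 14.5 bp, with 53.9% (47.1 to 60.6) of 206 and 47.1% (31.5 to 63.3) of 34 within 10 bp. The intervals overlapped in both ranges. The weaker sites also had lower p65KO scores by choice. From 100 to 150 their median was 11 bp (n = 14), against 9 bp at the sites kept. At 150 and above it was 2.5 bp (n = 2), against 7 bp. Sites left out for a higher p65KO score had 11 bp from 50 to 75 (n = 17), where the sites kept had 12 bp. From 75 to 100 they had 10.5 bp (n = 8), against 10 bp. Of the 17, 47.1% (26.2 to 69.0) lay within 10 bp, an interval that held the 45.5% of the sites kept. Strong pairs with p65 were not matched for score or limited by ratio. Their median WT score was 100.3, against 76.6 at the sites without p65. They had a median offset of 10 bp (n = 50), and 26 of the 50 (52.0%, 38.5 to 65.2) lay within 10 bp. By range of score, from 50 to 75 up to 150 and above, their medians were 13, 19, 7.5 and 10 bp. The sites without p65 had 12, 10, 9 and 7 bp. These ranges held 14, 10, 14 and 12 pairs with p65.

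The p65KO summit lay on either side of the WT summit in like numbers. The p65KO summit lay at a lower coordinate at 426 sites (49.0%, 45.7 to 52.3), at a higher one at 409 (47.0%) and on the same base at 35 (4.02%, beside 2.20% of all pairs). The same base was called at chromosome 13 at 113077514 and chromosome 7 at 54155031, which had p65KO scores of 158 and 185 against 249 and 242 in WT. It was also called at chromosome 3 at 37191761, chromosome 1 at 146094893 (164 and 176) and chromosome 9 at 45981238 (146 and 135). Sites whose summits coincided therefore included some with uneven scores. Across the 870 sites the size of the log2 ratio and the offset had a rho of 0.052.

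The widest offsets were few. They were 153 bp on chromosome 19 at 29331032, 110 bp on chromosome 10 at 74685355 and 101 bp on chromosome 13 at 20236818, then 97 bp on chromosome 15 at 76105109 and 88 bp on chromosome 7 at 81496416. The site on chromosome 10 had even scores, 74.8 in WT and 76.2 in p65KO. The other 4 had lower p65KO scores, 41.2 against 76.2, 75.7 against 121, 39.5 against 72.7 and 43.8 against 77.5.

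Where p65 lay within 1 kb of a strong IRF4 site, it lay close to the summit. Among the 1087 strong pairs, 50 had a p65 summit within 200 bp, at a median distance of 8 bp and at most 124 bp. No input library was subtracted, and whether sequence that attracts reads whatever the antibody gave some of these overlaps was not tested. The next nearest lay beyond 2500 bp, a range edge chosen after the distances were seen. None of the 1087 had its nearest p65 summit between 200 and 2500 bp, and 0 of 1087 allows a share of up to 0.276% for each of the ranges from 200 bp to 1 kb and from 1 to 2.5 kb. Among the 870 sites the nearest p65 summit was 2579 bp away, and the median distance was 3127742 bp. The 1 kb window therefore left out the same sites as a window of 200 bp would have. Over all 5533 WT summits, 168 had p65 within 200 bp, 27 from there to 1 kb and 11 from 1 to 2.5 kb.

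A p65 summit within 10 kb was found at 7 of the 870 sites (0.805%, 0.39 to 1.65), and at 32 of the 4468 other WT summits without p65 within 1 kb (0.716%, 0.508 to 1.01). Within 100 kb the counts were 49 (5.63%, 4.29 to 7.37) and 181 (4.05%, 3.51 to 4.67). The intervals overlapped at both distances. Inside stretches crowded with p65, meaning 3 or more p65 summits joined at 50 kb, lay 0 of the 870 sites, which allows up to 0.345%, and 7 of the same 4468 other summits (0.157%, 0.0759 to 0.323). With summits that had p65 within 1 kb counted too, it was 100 of 4663 other summits (2.14%, 1.77 to 2.60). Both shares leave p65 near by out or in by choice. How many of the strong pairs with p65 lay in such stretches was not counted.

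The 7 sites with p65 within 10 kb included the strongest of all, chromosome 11 at 61458225, with a p65 summit of score 5.76 at 2579 bp. Chromosome 14 at 54853050 (169 in WT and 151 in p65KO) had p65 of score 19.2 at 5820 bp. Chromosome 18 at 33352859 (65.6 and 69.0) had p65 of score 20.6 at 3620 bp. In these 3 the p65KO score was between 0.891 and 1.09 times the WT score. In the others of the 7, given next, it was between 0.540 and 1.02 times.

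Chromosome 13 at 30888166 scored 74.3 in WT and 56.2 in p65KO, with p65 of score 9.35 at 3821 bp. Chromosome 19 at 29331032 scored 76.2 and 41.2, with p65 of score 9.35 at 5103 bp. Chromosome 11 at 43190802 (65.6 and 66.9) and chromosome 15 at 55874267 (94.5 and 96.6) had p65 of scores 4.67 and 6.91 at 8089 and 8674 bp. Of the 7, the 3 lower in p65KO were those on chromosomes 13, 14 and 19.

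Most sites had no other WT IRF4 summit within 10 kb. The nearest other WT IRF4 summit lay at a median of 31826 bp from a site (interquartile range 9990 to 103514, binomial interval of the median 27255 to 37968) and at 37160 bp (34679 to 38836) from the other WT summits. Another WT summit lay within 10 kb of 218 sites (25.1%, 22.3 to 28.0), and of 1145 of the 4663 other summits (24.6%, 23.3 to 25.8). In groups of at least 3 WT summits joined at 10 kb were 48 sites (5.52%, 4.19 to 7.24), and 307 of the other summits (6.58%, 5.91 to 7.33). These intervals overlapped. WT score and distance to the nearest other summit had a rho of 0.006 over the 870 sites.

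Neighbouring sites of this kind were counted separately. The sites are 15.7% of the WT summits. No share to compare with was computed for these counts, so they are given as description. Another one lay within 10 kb of 44 sites (5.06%, 3.79 to 6.72) and within 100 kb of 226 (26.0%). The 44 formed 21 groups, 19 of 2 and 2 of 3. The closest neighbours were 802 bp apart on chromosome 19, at 18821289 (107 in WT and 107 in p65KO) and 18822091 (65.2 and 78.2).

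The groups of 3 lay on chromosomes 9 and 1. On chromosome 9, sites at 114381219, 114389536 and 114396866 scored 112, 109 and 63.5 in WT and 78.6, 87.2 and 63.7 in p65KO. On chromosome 1, sites at 60956283, 60962570 and 60970379 scored 53.2, 62.8 and 67.5 in WT and 64.1, 72.6 and 85.3 in p65KO. All 3 on chromosome 1 were higher in p65KO, whereas 2 of the 3 on chromosome 9 were lower.

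The strongest groups of 2 lay on chromosomes 14, 13 and 6. The sites on chromosome 14 at 28189382 and 28197498 scored 132 and 107 in WT and 123 and 104 in p65KO. Those on chromosome 13 at 63318401 and 63324897 scored 62.6 and 172 in WT and 40.3 and 191 in p65KO, which are opposite directions. Those on chromosome 6 at 142771767 and 142774208 scored 93.0 and 133 in WT and 80.2 and 125 in p65KO.

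Adjacent sites were also set side by side by their ratios, which the choice had limited, as description. Among adjacent sites up to 10 kb apart, 10 of 23 had log2 ratios of the same sign (43.5%), with a median difference of 0.32 (log2). From 10 to 100 kb it was 55 of 106 (51.9%) and 0.36, and from 100 kb to 1 Mb 142 of 274 (51.8%) and 0.36. Beyond 1 Mb it was 240 of 447 (53.7%) and 0.35. Directions were uneven over the 870 sites, with 570 lower and 300 higher in p65KO. The same-sign share of unrelated sites was not computed, so nothing is read from these shares.

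Joined at 100 kb, 82 sites formed 25 runs of at least 3, and the longest had 6. It lay on chromosome 13 from 30824739 to 31025060. From first to last its sites scored 66.1, 75.4, 74.3, 83.4, 56.9 and 110.1 in WT and 85.4, 82.1, 56.2, 53.1, 44.0 and 92.9 in p65KO. The first 2 were higher in p65KO and the other 4 lower. A p65 summit stood 3821 bp from the third site, and the run held 2 further WT summits (21.8 and 14.6) and 1 further p65KO summit (19.2).

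The run of 5 lay on chromosome 5 from 53793421 to 53963925. Its sites scored 219.9, 87.0, 135, 88.3 and 95.9 in WT and 211, 97.5, 148, 78.7 and 86.5 in p65KO. All 5 log2 ratios were between -0.17 and 0.16. The ratio limits bounded these sites only. The run held 12 WT and 12 p65KO summits and no p65 summit. Its other WT summits with a p65KO summit within 200 bp scored 17.8, 27.1, 13.5, 31.2, 49.6 and 15.5, in order of position. Their p65KO summits scored 32.4, 54.2, 16.1, 35.8, 19.3 and 30.2. Without such a partner were a WT summit of 13.8 and a p65KO summit of 16.8. There were 2 runs of 4. On chromosome 13 from 113077514 to 113248971 the sites scored 249, 77.5, 102 and 124 in WT and 158, 72.5, 135 and 153 in p65KO, with the first 2 lower in p65KO and the last 2 higher. On chromosome 11 from 100705649 to 100801423 they scored 86.5, 54.0, 54.2 and 52.8 in WT and 52.2, 48.2, 43.6 and 55.4 in p65KO, with the last alone higher.

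**Figure D4:**
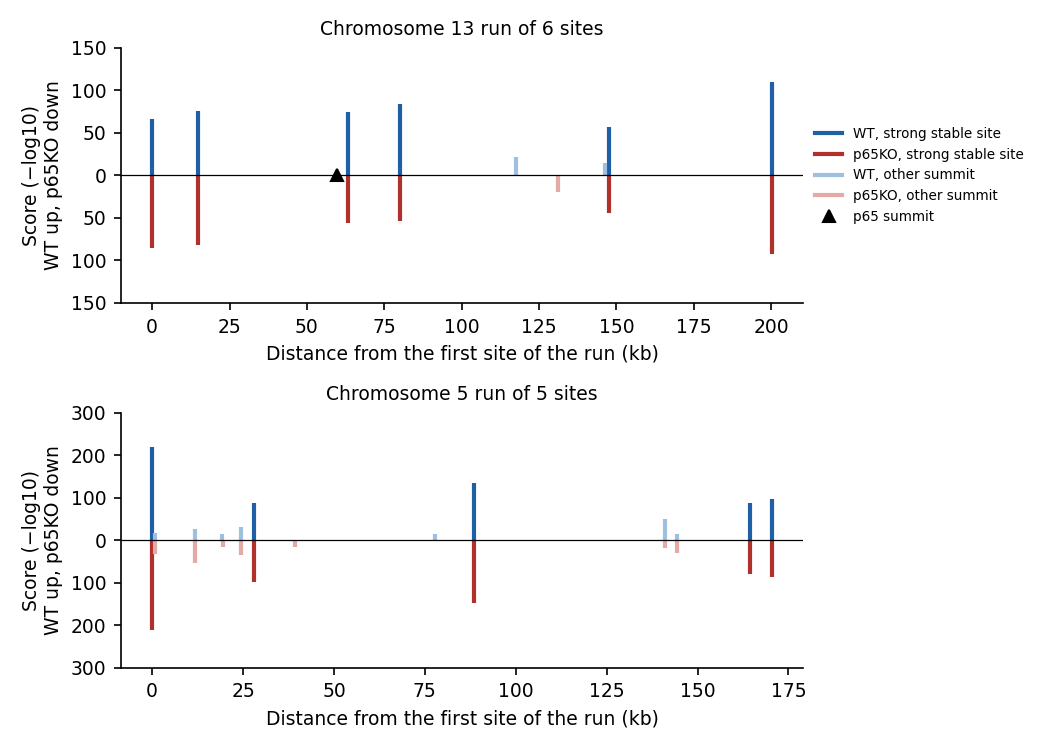
The runs of 6 sites on chromosome 13 and 5 sites on chromosome 5, with IRF4 score (−log10) drawn upward for WT and downward for p65KO against distance in kb from the first site of the run. Dark lines are strong stable sites without p65, pale lines other IRF4 summits, and the triangle marks the 1 p65 summit, 3821 bp from the third site of the chromosome 13 run.

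The share of these sites differed between chromosomes by no more than the counting intervals. They made up 15.7% of the 5533 WT summits, from 12.5% on chromosome X (8 of 64, 6.47 to 22.8) to 19.4% on chromosome 14 (40 of 206, 14.6 to 25.4). The interval of each of the 20 chromosomes held the overall share. Chromosome 1 had most sites (78), followed by chromosomes 2 (63), 11 (62) and 13 (59). The median log2 ratio was below 0 on all 20. It ran from -0.31 on chromosome 2, where 50 of 63 sites were lower in p65KO, to -0.04 on chromosome 19 (13 of 23). Over all 870 sites 65.5% were lower, beside 57.7% of all pairs. Setting the score limit on the WT list favours this direction, so nothing is read from it.

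**Figure D5:**
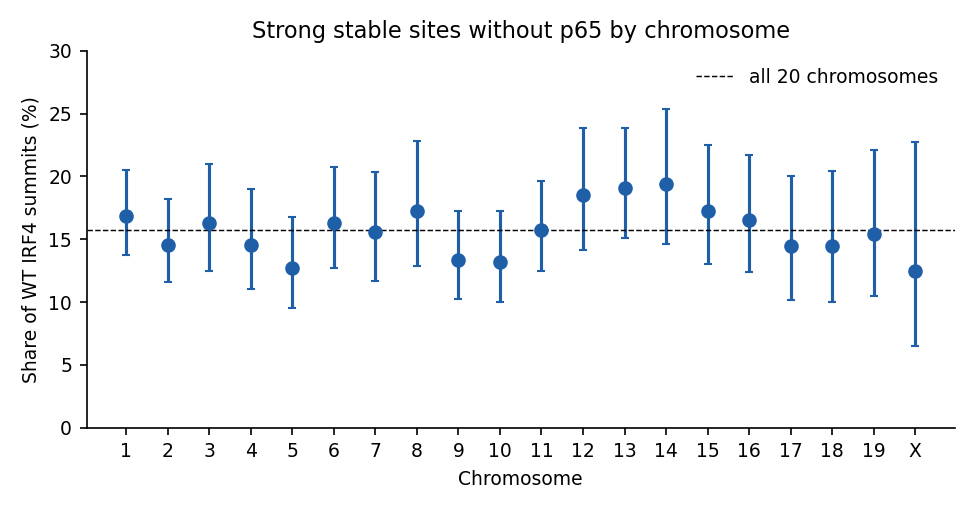
Share of WT IRF4 summits of each chromosome that were strong stable sites without p65, in percent, with 95% Wilson intervals; the dashed line is the share over all 20 chromosomes, 15.7%. Every interval crosses the line.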

How the data were processed

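Chromatin immunoprecipitation sequencing measured IRF4 in WT (3 samples) and p65KO (2 samples) regulatory T cells and p65 in WT cells (2 samples). What the authors deposited was 1 summit list per group (3 in all), with a −log10 significance score for each summit. Whether this score comes from p or q was not stated in the sources used here. MACS2 2.1.0, Subread, featureCounts and the build mm9 are named in the submitters' processing notes. Per the names of the lists and peaks, the q cut-offs were 1e-06 for IRF4 and 0.05 for p65 and no input library was used, so sequence that attracts reads whatever the antibody was not subtracted. The way samples of a group were merged is likewise not stated, nor whether they were separate animals.

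Positions were made 1-based, and pairing, distances and shares were computed with scipy 1.17.1, pandas 2.3.3 and numpy 2.4.6 in Python 3.11.15, and plotted with matplotlib 3.10.9. The choice of sites was tried on simulated lists with known partners. Their summits lay too far apart to compete for a partner, so the mutual nearest rule itself was not tested. Replicates are pooled in the lists, so no difference between genotypes has a replicate error and no test was made; 95% Wilson intervals, and binomial intervals of medians, cover counting over sites only. Read depth is unknown, because summit lists hold no counts, and a ratio of scores is a ratio of significance, which also moves with depth and sample number. Summits of 1 list share their libraries and are not replicates.

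The sites and the planned measures were chosen with earlier results of these data known. Named sites are the 10 highest in WT, the next 5 in p65KO, the 5 of ratio closest to 1 among WT scores of at least 100, the 3 nearest each limit, and the 5 groups with most sites joined at 10 kb. Sites named for p65 nearby, offset, isolation, position on the same base, or runs joined at 100 kb were chosen after their values were seen. Neither genome nor annotation of mm9 was used here; the gene table provided is of GRCm38.p6. The planned gene assignment, gene lists, promoter shares, motif search and base composition were therefore not run, no sequence is printed, and the Treg identity of the cells was not checked against marker genes.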

Additional observations from a re-analysis of the deposited data

How the results depend on the processing

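The number of sites was 870 and stayed within 1.5 times of that under each alternative but a score minimum of 75, which by its construction kept 448. The median log2 ratio, -0.16, was -0.21 with no ratio limits (1037 pairs) and -0.21 with percentiles taken over strong pairs without p65 (829 pairs, 791 of them shared). With the score minimum set on the p65KO list it was -0.0015; this alternative, and leaving out regions crowded with p65, were added after the data were seen. The median offset was between 9 and 11 bp under the 12 alternatives computed for it; selection by percentile ranks was run for the number of sites and the ratio only. The share of sites in clusters, 5.52%, was 0.92% when summits were joined at 5 kb and 18.7% at 25 kb, and the share with p65 within 100 kb, 5.63%, was 4.24% at a score minimum of 75. No paired analysis was possible because each group came as 1 pooled list, and for the same reason no replicate could be left out. Alternatives that needed mm9 sequence or annotation were not run. Weak peaks near the cut-off limit what can be called absent, and depth is unknown.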

Other observations

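Weaker IRF4 summits near the strong stable sites could be followed as well. Within 10 kb of a site lay 199 other WT summits, beside 186 of the 870 sites, with a median score of 24.6. Of these 199, 120 had an IRF4 summit of p65KO cells within 200 bp (60.3%, 95% Wilson interval 53.4 to 66.8). The share was 63.1% (59.0 to 67.1) of the 537 summits from 10 to 50 kb away and 57.7% (56.1 to 59.2) of the 3927 farther away. At WT scores from 20 to 30 it was 65.6% (53.4 to 76.1), 62.7% (54.7 to 70.0) and 58.6% (55.8 to 61.4) in the same order, and from 30 to 50 it was 78.6% (66.2 to 87.3), 87.0% (81.0 to 91.4) and 82.7% (80.3 to 84.9). The intervals of the nearest and the farthest class overlapped in each range.

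The most isolated sites lay on chromosomes X and 7. Chromosome X at 98564499 (79.8 in WT and 68.1 in p65KO) had no other WT IRF4 summit within 3119071 bp, and chromosome X at 11592383 (126 and 109) none within 2875486 bp. Chromosome 7 at 39022460 scored 60.1 and 33.0, with the nearest other WT summit 2492077 bp away.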
